A study of Bos taurus with 18 samples.

Results

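HSPB1, HSPB8, CRYAB and HSPB6, genes of the small heat shock protein family, were followed across 18 poly-A RNA libraries of MAC-T cells, a bovine line of immortalised mammary epithelium. The 4 genes were taken by name from the deposited table of 30642 genes, and all 4 had enough reads to be among the 15158 genes tested. The libraries formed 6 groups of 3, numbered 1 to 3. Per the labels the experiment was done 3 times. NHSUD cells were unheated and undifferentiated, in a basal medium with serum, insulin at 5 µg/ml and hydrocortisone at 1 µg/ml. NHSD cells were unheated and differentiated, kept in that base with added serum, ovine prolactin at 5 µg/ml and dexamethasone at 10 µg/ml. All groups, controls included, therefore received a glucocorticoid and were cultured for 4 days. HSUD and HSD were the undifferentiated and differentiated cells after 1 h at 42 °C, and D2R and D6R were differentiated cells returned to 37 °C for 2 h or 6 h after that heat. The unheated groups shared one plate, the heated groups another and the recovery groups a further one, so effects of heat, recovery and plate cannot be told apart. MAC-T is 1 line, and RNA of several wells was pooled per library. NHSD is the unheated control at both recovery times.

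Small heat shock proteins are ATP-independent chaperones built around a conserved alpha-crystallin domain. They bind unfolding proteins, hold them in a soluble state and pass them to the ATP-dependent HSP70 system for refolding or disposal. HSPB1 (HSP27) is a broadly expressed, heat-inducible member that also binds actin and intermediate filaments. HSPB8 (HSP22) works with the cochaperone BAG3 to route damaged proteins to autophagy. CRYAB (alpha-B-crystallin) is known from the lens and from muscle and also occurs in basal mammary cells, and HSPB6 (HSP20) is mostly a muscle protein. Heat-inducible members are switched on by the heat shock factor HSF1.

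Library totals ran from 40891703 to 61155755 counts. The epithelial identity in the label was met by the keratin genes KRT8 (3140 to 4660 CPM) and KRT18 (1640 to 3110 CPM). Luminal KRT19 was low, at 2.95 to 11 CPM. Of the basal and myoepithelial markers, KRT5 was abundant, at 8580 to 17400 CPM, and KRT14 held 188 to 970 and TP63 32.7 to 107 CPM. The contractile gene ACTA2 held 92 to 248 CPM. The contractile genes CNN1 and MYH11 and the oxytocin receptor gene OXTR stayed at or below 0.399, 1.08 and 0.111 CPM. The muscle gene MYOD1 had no read, and DES, MYH7 and ACTA1 stayed at or below 0.721 CPM. The fibroblast genes COL1A1, COL1A2 and LUM stayed at or below 0.347, 0.187 and 2 CPM. Of the other fibroblast markers, DCN held 417 to 813 CPM and PDGFRA 5.85 to 12.7 CPM. CPM here are counts scaled to a common library total with TMM factors. Replicate 1 stood apart in differentiated cells, to a degree that varied with the comparison. Across 10070 genes with a mean of at least 5 CPM, the 6 h against 2 h recovery differences correlated at 0.759 between replicates 2 and 3, but at -0.0264 and -0.139 between replicate 1 and these. The heat differences in differentiated cells behaved likewise, with 0.734 between replicates 2 and 3 against 0.175 and -0.0354 with replicate 1. So did 2 h against NHSD (0.555 against 0.0917 and -0.0735). The split was smaller at 6 h against HSD (0.747 against 0.209 and 0.274) and at 6 h against NHSD (0.57 against 0.283 and 0.335). It was smallest at 2 h against HSD (0.389 against 0.225 and 0.317). In undifferentiated cells the heat differences of replicate 1 went with those of replicate 3 (0.61). HSPB8, BAG3 and HSPH1 were higher in D6R than in D2R in replicate 1 and lower in D6R in replicates 2 and 3. Genes are not independent, these values carry no test, and what set replicate 1 apart was not tested. Whether its D2R and D6R libraries carry the right recovery times was not tested either, and all values follow the labels. Recovery results are therefore given with and without it.

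HSPB1 had the smallest spread within groups, with a coefficient of variation of 0.153 in the fit, against 0.303 for HSPB8, 0.356 for CRYAB and 0.38 for HSPB6. In NHSUD its 3 libraries held 777, 878 and 1042 CPM, and in NHSD 994, 848 and 939 CPM. After heat they held 1683, 1756 and 1738 CPM in HSUD, and 2077, 1682 and 1577 CPM in HSD. In each medium the heated libraries all lay above the unheated ones, as for 3.99% of all tested genes in undifferentiated and 3.75% in differentiated cells. D2R libraries were at 1638, 2353 and 1971 CPM, and D6R libraries at 1338, 1810 and 1978 CPM. Both groups lay above all NHSD libraries, as for 3.44% of all tested genes at 2 h and 5.57% at 6 h. In rising order the group means were NHSUD, NHSD, D6R, HSUD, HSD and D2R, and the ranges of neighbouring groups overlapped except between NHSD and D6R. Of the variance of its log2 CPM, 88.2% lay between groups and 1.44% between replicate numbers.

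HSPB8 varied more. Its libraries held 238, 444 and 516 CPM in NHSUD and 209, 244 and 356 CPM in NHSD, and 545, 594 and 722 CPM in HSUD and 621, 414 and 569.9 CPM in HSD. Heated libraries lay above the unheated ones of the same medium, as for 3.99% of all tested genes in undifferentiated and 3.75% in differentiated cells. D2R was the most scattered group, with 362, 907 and 1360 CPM, and D6R was narrow, with 436, 392 and 512 CPM. D2R replicate 1 was the lowest library of its group by a wide margin and lay below all 3 HSD libraries. The group means rose in the order NHSD, NHSUD, D6R, HSD, HSUD and D2R, with overlapping ranges at every step.

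CRYAB separated the replicate numbers as well as the treatments. Its libraries held 27.5, 41.6 and 81.1 CPM in NHSUD, 46.0, 37.9 and 78.2 CPM in NHSD, 60.4, 78.2 and 125 CPM in HSUD and 91.3, 83.2 and 127 CPM in HSD. In D2R they held 81.4, 135.6 and 158.6 CPM, and in D6R 72.8, 128.8 and 213.7 CPM. Replicate 3 was the highest library in 6 of 6 groups and replicate 1 the lowest in 4 of 6. Between replicate numbers lay 34.5% of its variance, and between groups 57.6%. The means rose in the order NHSUD, NHSD, HSUD, HSD, D2R and D6R, every neighbouring pair overlapping.

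HSPB6 was scarce, with 46 to 298 counts per library. It was at 1.80, 2.42 and 4.24 CPM in NHSUD and 1.77, 1.87 and 5.175 CPM in NHSD, at 1.69, 2.17 and 2.23 CPM in HSUD and at 2.27, 1.17 and 2.12 CPM in HSD. It was at 1.845, 1.30 and 1.74 CPM in D2R and at 1.09, 1.91 and 3.04 CPM in D6R. Unheated replicate 3 libraries were the highest, and all neighbouring groups overlapped. Only 23.4% of its variance lay between groups, against 38.9% between replicate numbers. Levels are not compared between the 4 genes, since transcript lengths of the build used are not analysed here.

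**Figure D1:**
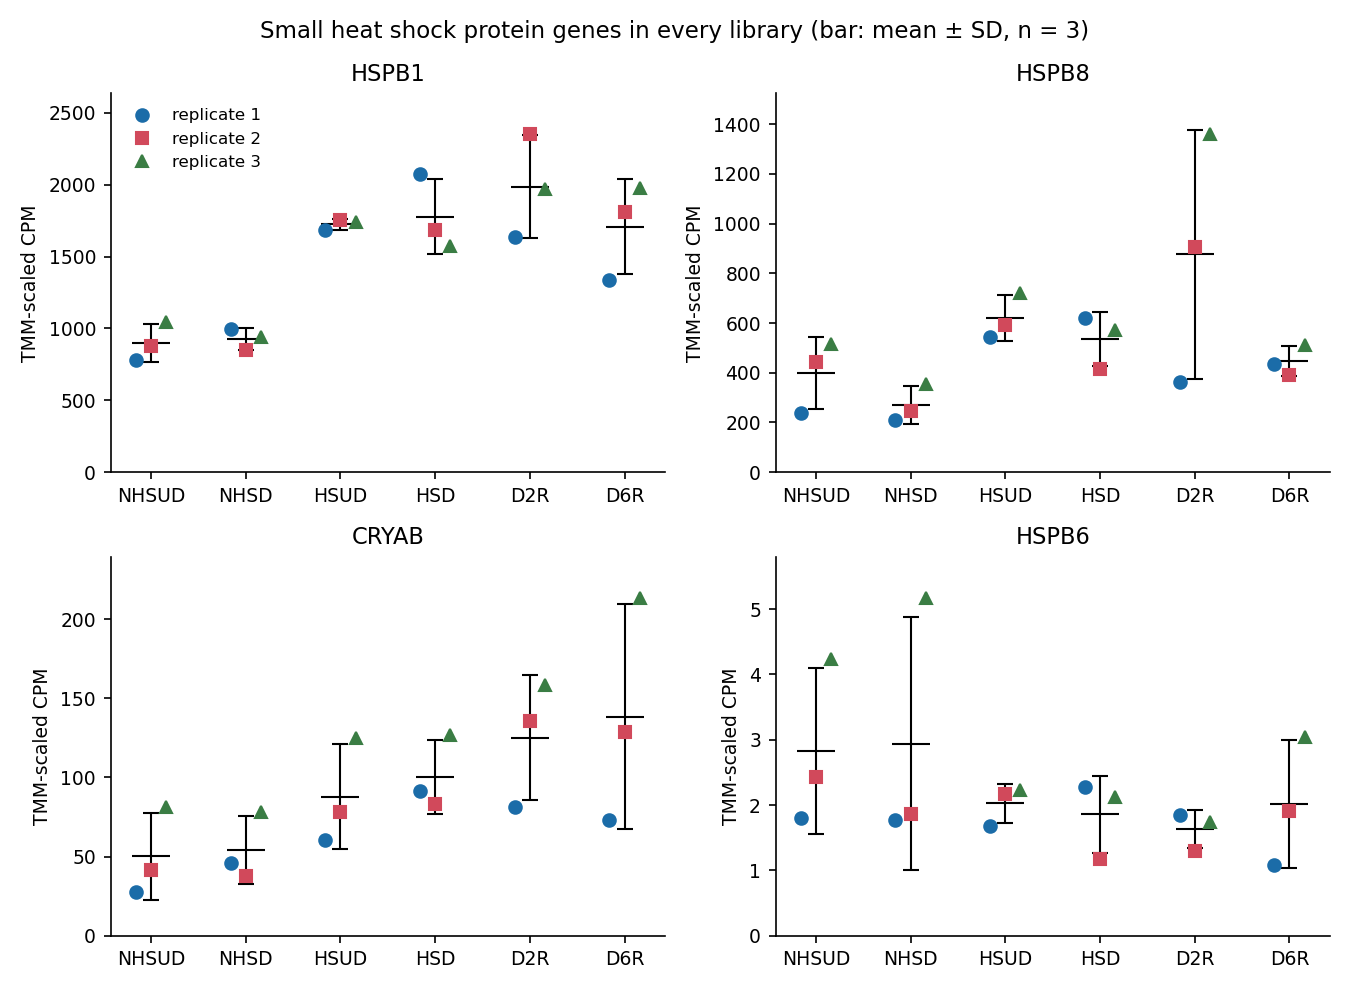
Level of each gene in every library, as TMM-scaled CPM on a linear axis from 0, by group, with a symbol for each replicate number and a bar for the mean ± SD (n = 3). HSPB1 lies at 777 to 1042 CPM in the unheated libraries and at 1338 CPM or more in all others, while HSPB6 stays at 5.175 CPM or less.

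The first question was what heat did to these genes in undifferentiated cells. HSPB1 rose 1.92-fold (95% interval 1.49 to 2.47), from 899 ± 134 CPM in the unheated to 1726 ± 37.8 CPM in the heated libraries (SD, n = 3). On the log2 scale the change was 0.94 ± 0.17 (SE; edgeR, adjusted p = 0.042). It was higher in 3 of 3 same-numbered pairs. HSPB8 was at 399 ± 144 and 620.2 ± 91.1 CPM, a log2 fold change of 0.64 ± 0.36 (adjusted p = 0.999). CRYAB was at 50.06 ± 27.8 and 87.9 ± 33.4 CPM, a log2 fold change of 0.81 ± 0.42 (adjusted p = 0.999). Both were higher in 3 of 3 same-numbered pairs without passing the test. HSPB6, at 2.82 ± 1.27 and 2.03 ± 0.299 CPM, had a log2 fold change of -0.47 ± 0.45 (adjusted p = 0.999), lower in the heated library of every pair. In bulk RNA, a change per cell and a change in the make-up of the culture cannot be told apart.

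Thus 1 of the 4 genes was called as higher, where 0.119% of all tested genes were. HSPB1 and HSPB8 had no overlap between the groups in the higher direction, as did 3.99% of all tested genes. The median log2 fold change was 0.72 over the 4 genes and 0.01 over all tested genes. The HSPB1 call was close to the threshold. It was lost when any one of the 6 libraries was left out (adjusted p from 0.0717 to 0.254), when NHSUD and HSUD were fitted on their own (0.211) and with scaling by library size alone (0.115).

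In differentiated cells HSPB1 also rose with heat, 1.92-fold (95% interval 1.49 to 2.47), from 927 ± 73.5 CPM without heat to 1779 ± 264 CPM with it (SD, n = 3), or by 0.94 ± 0.17 on the log2 scale (SE; edgeR, adjusted p = 0.0477). HSPB8 was at 269.8 ± 76.7 and 535 ± 108 CPM, 1.98-fold, with an interval of 1.17 to 3.36 and an adjusted p of 0.846. CRYAB was at 54.0 ± 21.4 and 100.5 ± 23.3 CPM, 1.86-fold, with an interval of 1.002 to 3.45 and an adjusted p of 0.996. These 3 genes were higher in 3 of 3 same-numbered pairs, and their heated and unheated libraries did not overlap, as for 3.75% of all tested genes. HSPB6 was at 2.94 ± 1.94 and 1.855 ± 0.595 CPM, with a log2 fold change of -0.67 ± 0.45 (adjusted p = 0.996), and was higher in 1 pair and lower in the others.

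Again 1 of the 4 genes was called as higher, against 0.0858% of all tested genes, and the median log2 fold change was 0.92 over the 4 and -0.0025 over all tested genes. The HSPB1 call was lost when any one of the 6 libraries was left out (adjusted p from 0.0702 to 0.338), with NHSD and HSD fitted on their own (0.175), with scaling by library size alone (0.128) and with a filter of 5 CPM (0.0516). With a replicate block, which compares libraries of the same number, HSPB1 kept its call in both media (adjusted p of 0.00218 and 0.00313), where 0.383% and 0.29% of all tested genes were called as higher. In that fit of all libraries CRYAB had an adjusted p of 0.08 in undifferentiated and 0.0606 in differentiated cells, and HSPB8 had 0.404 and 0.238. With the block and without replicate 2, HSPB1 lost both calls (0.0876 and 0.0937). Without replicate 1 the blocked fit called HSPB1, HSPB8 (log2 fold change 0.70 ± 0.11, adjusted p = 0.00796) and CRYAB (0.89 ± 0.15, 0.0123) in differentiated cells, 3 of 4 against 0.471% of all tested genes. That fit held 2 libraries per group. Leaving out replicate 1 was a choice made partly on its HSPB8 values, so these p-values are not separate evidence. In undifferentiated cells the same fit called 1 of the 4, as the main fit did, and its share of all tested genes is not given here.

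The medium itself was examined with and without heat. By edgeR, 0 of the 4 genes passed between NHSD and NHSUD or between HSD and HSUD, and DESeq2 called 0 in either comparison. Both tools called 0% of all tested genes in each. In edgeR 0 of the 4 had an unadjusted p under 0.05, against 253 and 267 of the 15158 tested genes. HSPB1 differed by 0.04 ± 0.17 on the log2 scale in both (SE), with an interval of 0.80 to 1.33-fold. The HSPB8 estimate was -0.57 ± 0.36 without heat, where NHSD was below NHSUD in 3 of 3 pairs, and -0.21 ± 0.36 with heat. CRYAB had 0.11 ± 0.42 and 0.19 ± 0.42, and HSPB6 0.06 ± 0.44 and -0.13 ± 0.45. The difference of the heat effects between the media was tested directly, and 0 of the 4 genes and 0% of all tested genes passed in edgeR, as in DESeq2. In edgeR 0 of the 4 had an unadjusted p under 0.05 for this difference, against 88 of the 15158 tested genes. For HSPB1 that difference was -0.00022 on the log2 scale, with an interval from -0.51 to 0.51. For HSPB8 it was 0.35 ± 0.50, with an interval from -0.71 to 1.42, so with 3 libraries per group differences within that range remained compatible with the data.

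Recovery was followed in differentiated cells. After 2 h at 37 °C, HSPB1 was at 1987 ± 358 CPM in D2R (SD, n = 3), 2.14-fold above NHSD (interval 1.66 to 2.77), or 1.10 ± 0.17 on the log2 scale (SE; edgeR, adjusted p = 0.0199). HSPB8 was at 876 ± 499.8 CPM, 3.25-fold above NHSD, or 1.70 ± 0.37 on the log2 scale (adjusted p = 0.162). CRYAB was at 125 ± 39.6 CPM, with 1.21 ± 0.43 (adjusted p = 0.999). HSPB6 was at 1.63 ± 0.289 CPM, with -0.85 ± 0.45 (adjusted p = 0.999). So 1 of the 4 genes was called as higher, against 0.0792% of all tested genes, and HSPB1, HSPB8 and CRYAB had no overlap with NHSD in the higher direction, against 3.44% of all tested genes. These 3 were higher in 3 of 3 same-numbered pairs. The median log2 fold change was 1.16 over the 4 genes and -0.01 over all tested genes.

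With the replicate block the calls at 2 h were 2, against 0.165% of all tested genes called as higher there. HSPB1 (adjusted p = 0.00137) and CRYAB (log2 fold change 1.22 ± 0.21, adjusted p = 0.0229) were called, and HSPB8 was not (0.095). DESeq2 called HSPB1 and HSPB8 (HSPB8 adjusted p = 0.00117), with 0.211% of all tested genes higher. The HSPB1 call without a block was lost with NHSD and D2R fitted on their own (0.181), and on leaving out any single NHSD library, D2R replicate 2 or D2R replicate 3 (0.0742 to 0.235). Without D2R replicate 1, HSPB8 was called, with a log2 fold change of 2.07 ± 0.30 (SE; edgeR, adjusted p = 0.00357), making 2 of the 4 against 0.161% of all tested genes. That library held the lowest HSPB8 value of its group, so this edgeR call depends on leaving it out.

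After 6 h HSPB1 was still at 1709 ± 332 CPM in D6R (SD, n = 3), 1.84-fold above NHSD (interval 1.43 to 2.38), or 0.88 ± 0.17 on the log2 scale (adjusted p = 0.151). CRYAB had its highest mean here, at 138 ± 70.9 CPM, with a log2 fold change of 1.36 ± 0.43 (adjusted p = 0.655). HSPB8 was at 446.5 ± 60.45 CPM, with 0.73 ± 0.36 (adjusted p = 0.853), and HSPB6 at 2.01 ± 0.982 CPM, with -0.54 ± 0.44 (adjusted p = 0.978). HSPB1, HSPB8 and CRYAB were higher in 3 of 3 same-numbered pairs. HSPB1 and HSPB8 did not overlap with NHSD, against 5.57% of all tested genes in that direction. The median log2 fold change was 0.80 over the 4 genes and -0.0023 over all tested genes.

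Without the block, edgeR called 0 of the 4 genes at 6 h, where 0.0132% of all tested genes were called as higher. There 2 of the 4 had an unadjusted p under 0.05, as did 920 of the 15158 tested genes. DESeq2 called HSPB1 (adjusted p = 0.00128), with 0.183% of all tested genes higher. With the replicate block HSPB1 (0.87 ± 0.15 log2, adjusted p = 0.00769) and CRYAB (1.29 ± 0.21 log2, adjusted p = 0.0102) were called, 2 of 4 against 0.673% of all tested genes called as higher. Leaving out D6R replicate 1 also brought HSPB1 past the threshold, at 1.03 ± 0.17 (adjusted p = 0.0455), with 0.0451% of all tested genes higher.

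**Figure D2:**
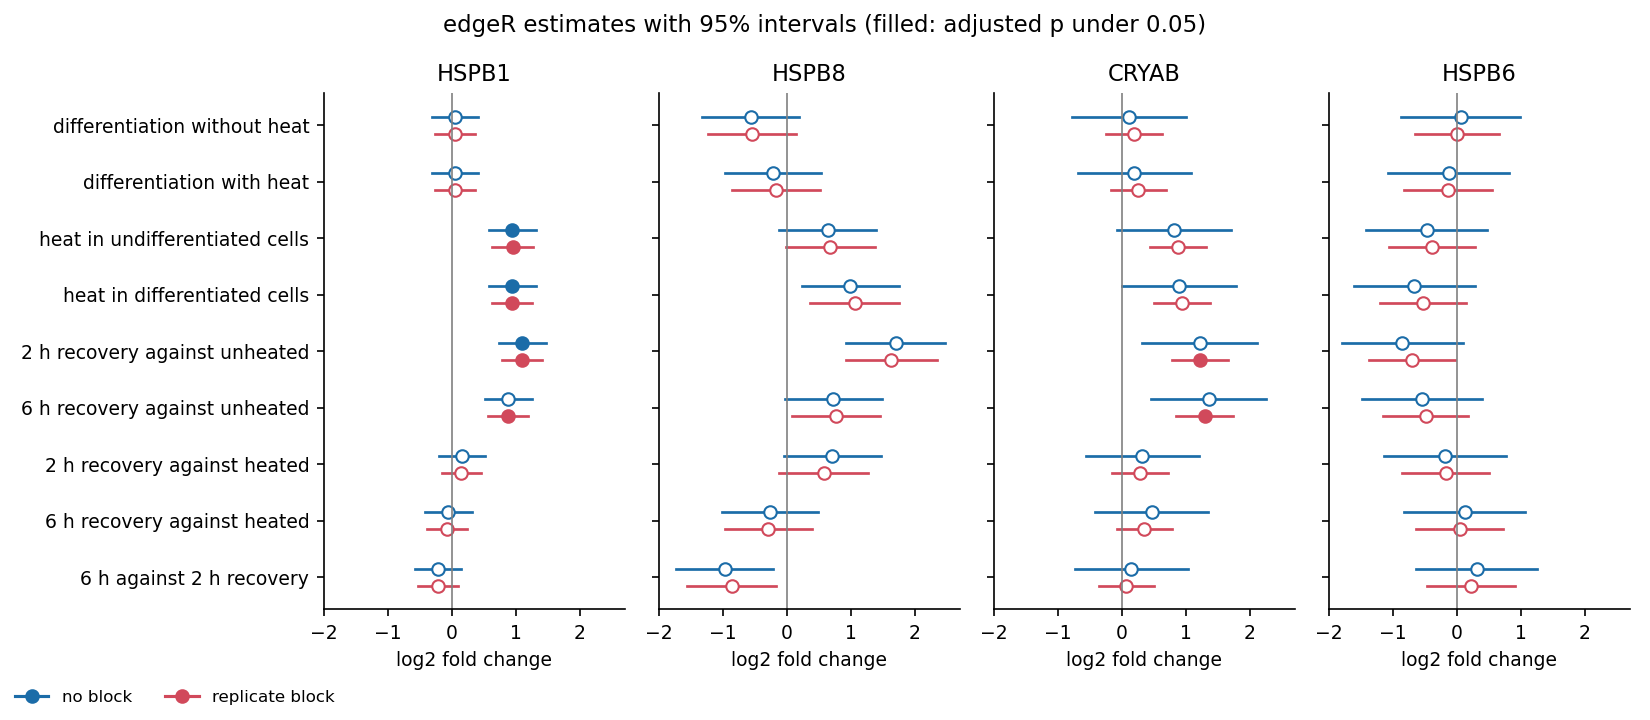
Log2 fold changes of the 4 genes in 9 comparisons, with 95% intervals from edgeR, without a block (blue) and with a replicate block (red), filled where the adjusted p was under 0.05. HSPB1 is called for heat in both media and after 2 h in both fits and at 6 h only with the block, CRYAB is called at 2 h and 6 h only with the block, and HSPB6 has estimates below 0 in all comparisons with NHSD or NHSUD that involve heat.

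The change during recovery was also tested against the end of heat. In edgeR 0 of the 4 genes passed between D2R and HSD (0.0528% of all tested genes), between D6R and HSD (0.066%) or between D6R and D2R (0%). At an unadjusted p under 0.05 there were 0, 0 and 1 of the 4, against 535, 1264 and 585 of the 15158 tested genes. DESeq2 called 0 of the 4 in each, against 0.284%, 0.645% and 0.0198% of all tested genes. HSPB1 differed from HSD by 0.16 ± 0.17 at 2 h and by -0.06 ± 0.17 at 6 h on the log2 scale (SE), intervals of 0.869 to 1.44-fold and 0.747 to 1.24-fold. The 6 h estimate was 0.07 with scaling by library size alone, which moved the median of all tested genes to 0.139, and 0.09 without D6R replicate 1. CRYAB differed by 0.32 ± 0.42 and 0.46 ± 0.42. HSPB8 differed by 0.71 ± 0.36 at 2 h and by -0.26 ± 0.36 at 6 h, and between 6 h and 2 h by -0.97 ± 0.36 (adjusted p = 1). HSPB6 differed by -0.19 ± 0.45 and 0.12 ± 0.45 from HSD.

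These averages joined courses that went different ways. In replicates 2 and 3, HSPB8 was 0.76 and 0.68 log2 units above the same-numbered NHSD library after heat, 1.89 and 1.93 above it after 2 h, and 0.68 and 0.52 above it after 6 h. In replicate 1 it was 1.57 above NHSD after heat, 0.79 after 2 h and 1.06 after 6 h. Thus HSPB8 was highest after 2 h of recovery in replicates 2 and 3 and at the end of heat in replicate 1. HSPB1 was 1.06, 0.72 and 0.43 above NHSD in replicate 1, against 0.99, 1.47 and 1.09 in replicate 2 and 0.75, 1.07 and 1.08 in replicate 3. CRYAB was 0.99, 0.82 and 0.66 above NHSD in replicate 1, 1.135, 1.84 and 1.77 in replicate 2, and 0.70, 1.02 and 1.45 in replicate 3. HSPB6 was 0.36 above, 0.06 above and 0.71 below NHSD in replicate 1, and reached its lowest value after 2 h in replicate 3. HSPB1, HSPB8 and CRYAB were therefore lower after recovery than after heat in replicate 1, while in the other replicates HSPB1 and CRYAB stayed above their heat values at both times.

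With the replicate block and without replicate 1, all of HSPB1, HSPB8 and CRYAB were called at both recovery times against NHSD by edgeR, with 2 libraries per group. These were 3 of 4, against 0.484% of all tested genes at 2 h and 1.18% at 6 h called as higher. HSPB8 was at 1.92 ± 0.12 (SE, adjusted p = 1.5e-06) at 2 h and 0.61 ± 0.11 (0.0161) at 6 h. CRYAB was at 1.44 ± 0.16 (0.000504) and 1.60 ± 0.16 (0.00038), and HSPB1 at 1.09 ± 0.13 (0.00109) at 6 h. There HSPB8 also differed between D2R and HSD, by 1.22 ± 0.12 (adjusted p = 0.000506, with 0.346% of all tested genes higher), and between D6R and D2R, by -1.31 ± 0.12 (8.84e-05, with 1.41% lower). CRYAB was above HSD at 6 h, by 0.71 ± 0.15 (0.019, with 4.6% of all tested genes higher). In the blocked edgeR fit of all libraries the adjusted p of these differences were 0.668 and 0.324 for HSPB8 and 0.323 for CRYAB. Replicate 1 had been set apart partly by its HSPB8 values, so the p-values without it depend on that choice and are not separate evidence. When replicate 2 was left out instead, the blocked fit called 0 of the 4 at 2 h, against 0.0264% of all tested genes. At 6 h against NHSD the blocked fit called 0 of the 4 both without replicate 2 and without replicate 3. The shares of all tested genes in those 6 h fits are not given here.

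**Figure D3:**
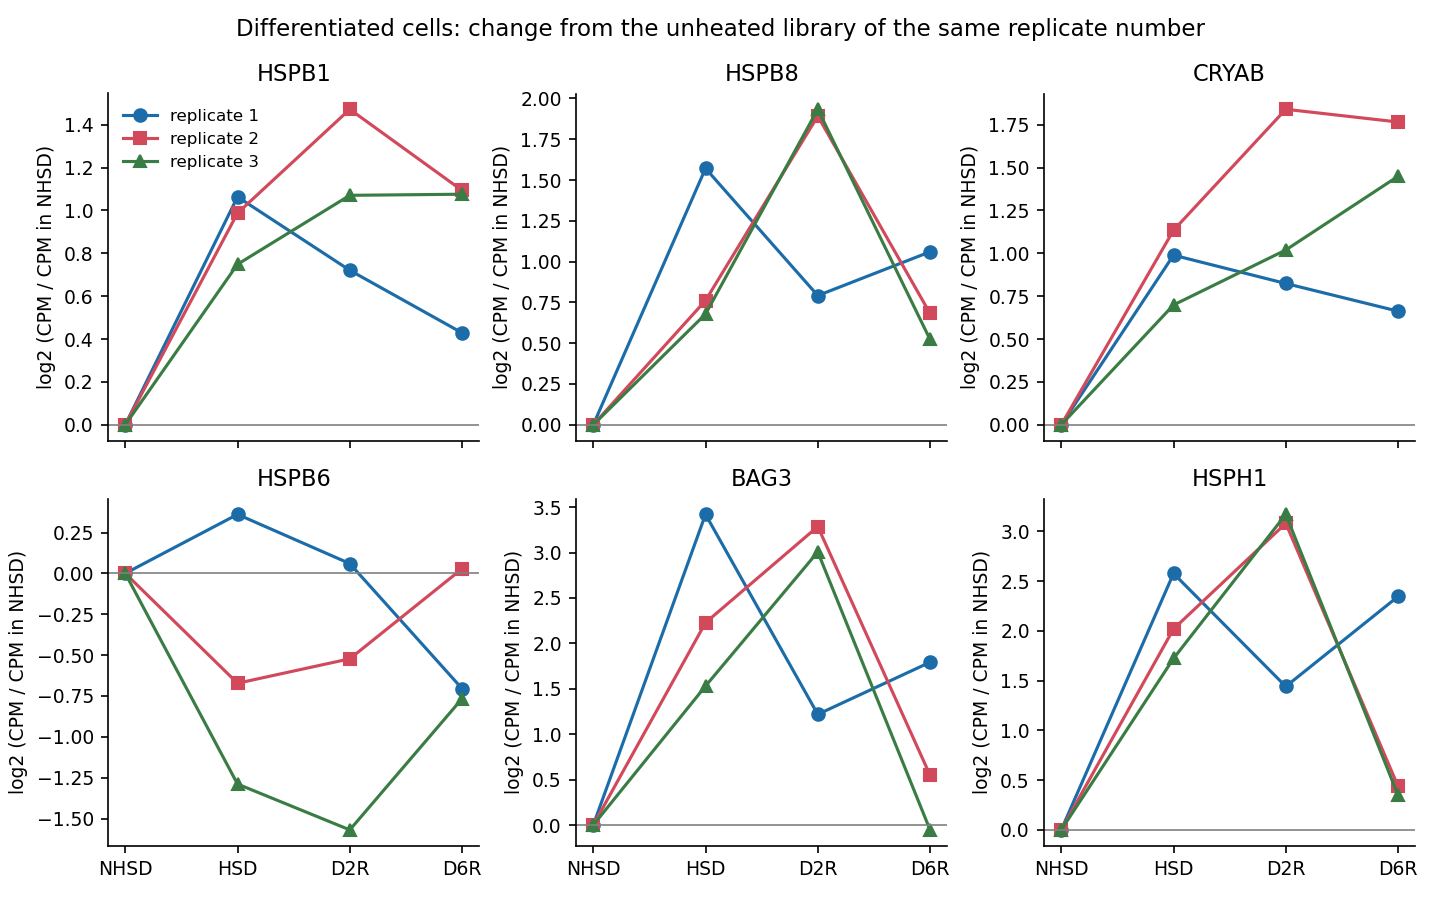
Log2 ratio of the CPM in HSD, D2R and D6R to the NHSD library of the same replicate number, 1 line per replicate number, for the 4 genes and for BAG3 and HSPH1 (vertical scales differ). Lines of replicates 2 and 3 peak at D2R for HSPB8, BAG3 and HSPH1, and the line of replicate 1 peaks at HSD.

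Genes whose pattern was most like each member were sought by Pearson's r of log2 CPM over the 18 libraries, after subtracting the mean of each replicate number, among 9762 genes (9763 for HSPB6) with a symbol and a mean of at least 5 CPM. The 18 points share treatments and plates, so r is a description and has no test. Genes so chosen follow a member over these same libraries, so their calls largely repeat that choice and are not separate support. Without the block, 0.119% of all tested genes were called as higher with heat in undifferentiated cells and 0.0792% at 2 h. With the block the shares were 0.383% and 0.29% with heat in undifferentiated and differentiated cells, 0.165% at 2 h and 0.673% at 6 h. HSPB1 was followed most closely by FKBP4 (r = 0.957), an HSP90 cochaperone, by SERPINH1 (0.947), the collagen chaperone HSP47, and by HSP90AA1 (0.945), the inducible cytosolic HSP90. FKBP4 means were 192 CPM in NHSUD and 180 in NHSD, and 341 in HSUD, 312 in HSD, 413 in D2R and 349 in D6R. It was called for heat in undifferentiated cells (0.83 ± 0.15 log2, edgeR, adjusted p = 0.0446) and after 2 h of recovery against NHSD (0.00248). With the replicate block FKBP4 was also called for heat in differentiated cells (0.00683) and at 6 h against NHSD (0.00233). SERPINH1 was called at 2 h without the block (1.65 ± 0.25 log2, 0.0146), and with it for heat in both media (0.0285 and 0.0324) and at 2 h and 6 h (0.00864 and 0.0181). HSPB8 was followed by the J-domain protein gene DNAJA4 (0.917), by HSPH1 (0.906), an HSP110 nucleotide exchange factor, and by its own partner BAG3 (0.905). CRYAB was followed by HSPB1 (0.943), by SAT1 (0.935), the rate-limiting enzyme of polyamine breakdown, and by the J-domain gene DNAJB2 (0.917). SAT1 was called only with the block, at 2 h and 6 h against NHSD (adjusted p of 0.0134 and 0.0161 in edgeR), as was DNAJB2 at 6 h (0.0288). HSPB6 was followed by SLC41A3 (0.926), DDR1 (0.925) and CRTC1 (0.918), and none of these was called in any of the 10 comparisons, with or without the block. Between the members themselves r was 0.943 for HSPB1 and CRYAB, 0.771 for HSPB1 and HSPB8, 0.628 for HSPB8 and CRYAB, and -0.409 to -0.455 for HSPB6 with the others.

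BAG3 showed the same split of replicates as HSPB8. Its D2R libraries held 79.5, 469 and 512 CPM, after 366, 225 and 184 CPM in HSD and before 118, 70.4 and 61.4 CPM in D6R. It was at 48.7 ± 14.8 CPM in NHSD and 354 ± 238.5 in D2R (SD, n = 3), a difference of 2.86 ± 0.51 on the log2 scale (edgeR, adjusted p = 0.0434). The call was lost with the replicate block (0.132), with NHSD and D2R fitted on their own (0.999) and without any one of 5 of the 6 libraries, D2R replicate 1 being the exception. HSPH1 in D2R held 370.2, 1259 and 1640 CPM, and 693, 201.5 and 232 CPM in D6R.

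The rest of the family was scarce. Of 7 further small heat shock protein genes in the table, 2 were tested, HSPB2 and HSPB11, and 0 were called in any comparison. HSPB2 lies next to CRYAB in the bovine RefSeq annotation and is a muscle-associated member. It was at 1.55 ± 0.689 CPM in NHSD, 1.99 ± 0.248 in HSD, 2.11 ± 0.501 in D2R and 1.56 ± 0.419 in D6R (SD, n = 3), with overlapping ranges, and its log2 fold change for heat was 0.36 ± 0.36 in differentiated cells, against 0.89 ± 0.42 for CRYAB. The largest HSPB2 estimate was 0.50 ± 0.36, for the medium with heat (adjusted p = 1). HSPB11, which RefSeq names IFT25 and which serves in ciliary transport, was at 6.57 ± 0.849 CPM in NHSD and 8.15 ± 0.486 in HSD. HSPB9 had 74 counts and HSPB7 28 counts over all 18 libraries. The lens gene CRYAA, the heart and muscle gene HSPB3 and the sperm tail gene ODF1 had 0 counts. If counts are independent, that allows up to 3 counts per library, or 0.0499 to 0.0779 CPM, from counting error alone. Both mates of a pair may have been counted, so this limit per library may be too low.

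Partner genes were taken from 5 further lists. Of the 6 refolding partners, 3 were called as higher with heat in each medium, 3 after 2 h and 1 after 6 h against NHSD, where 0.119%, 0.0858%, 0.0792% and 0.0132% of all tested genes were. Their estimates had medians of 1.56, 1.56, 1.31 and 0.84 on the log2 scale where the medians of all tested genes were between -0.01 and 0.01. With heat the called genes were DNAJB1 (3.92 ± 0.27 in differentiated cells, SE), the HSP70 gene HSPA6 (9.70 ± 0.74) and HSP90AA1 (0.99 ± 0.15), at adjusted p of 9.01e-07, 1.89e-06 and 0.00657 in edgeR. After 2 h they were HSPA6, HSP90AA1 and HSPH1 (2.81 ± 0.46, adjusted p = 0.0267, and 0.116 with the replicate block). The HSPH1 call was lost without any one of 5 of the 6 libraries, D2R replicate 1 being the exception, without a filter on low counts, and with NHSD and D2R fitted on their own (0.181). After 6 h it was HSP90AA1, and all calls of this gene were lost when only the compared groups were fitted (0.145 to 0.246), as were those of HSPA6 at 2 h (0.156 against NHSD and 0.489 against HSD). Against HSD, 2 were lower at 2 h and 2 at 6 h, in both cases DNAJB1 (-2.84 ± 0.26 and -3.65 ± 0.27) and HSPA6 (-4.96 ± 0.59 and -6.85 ± 0.65), where 0.033% and 0.0462% of all tested genes were called as lower. HSPA6 held 3.03 to 3.69 CPM in NHSD and 1919 to 3991 CPM in HSD, and it has close copies with which it may share reads.

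Of the 11 genes of BAG3- and HSPB8-assisted autophagy, 1 was called as higher with heat in each medium (HSPA1A, an inducible HSP70 gene with close copies, 4.09 ± 0.55 in differentiated cells, adjusted p = 0.00277) and 1 after 2 h (BAG3), while HSPA1A was called as lower at 6 h against HSD (-3.08 ± 0.52, 0.0355), a call lost without any one of 5 of the 6 libraries. The shares of all tested genes called were 0.119% and 0.0858% higher with heat, 0.0792% higher at 2 h and 0.0462% lower at 6 h against HSD. HSPA8, the constitutive HSP70 of that complex, had 0.99 ± 0.27 for heat in differentiated cells (adjusted p = 0.408) and was called with the replicate block (0.0348). The ubiquitin ligase gene STUB1 (0.10 ± 0.11), the autophagy receptor gene SQSTM1 (0.145 ± 0.156) and SYNPO2 (-0.39 ± 0.34), which links the complex to actin in muscle, were not called there. The list median was 0.07 in undifferentiated and 0.14 in differentiated cells, 0.20 after 2 h and -0.0041 after 6 h.

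None of the 5 heat shock factor genes (HSBP1 included), the 6 tested kinases that phosphorylate these proteins or the 9 cytoskeletal clients was called in any comparison without the block. HSF1 had -0.08 ± 0.15 for heat in differentiated cells, and MAPKAPK2, the main HSPB1 kinase, -0.05 ± 0.14. The largest estimates in these lists were 1.84 ± 0.72 for HSF5, between the unheated media, and -0.38 ± 0.25 for the kinase gene PRKACA, for heat in undifferentiated cells, both with an adjusted p of 0.999 or more. Among the clients, TUBB, a beta-tubulin gene, had -0.60 ± 0.20 at 6 h against NHSD (adjusted p = 0.682), and was lower there with the replicate block (-0.61 ± 0.13, edgeR, adjusted p = 0.0222, with 0.778% of all tested genes lower). Against HSD at 6 h the block also called TUBB as lower (-0.58 ± 0.13, adjusted p = 0.022, with 1.5% of all tested genes lower). Without the block, 8 of the 9 clients had estimates below 0 at 6 h against NHSD (median -0.18) and 9 of 9 against HSD (median -0.30, against 0.01 over all tested genes), or 8 of 9 with scaling by library size alone (median -0.19). The client with the largest estimate was DES, with 1.235 ± 0.742 for heat in differentiated cells (adjusted p = 0.996), from levels of at most 0.721 CPM.

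**Figure D4:**
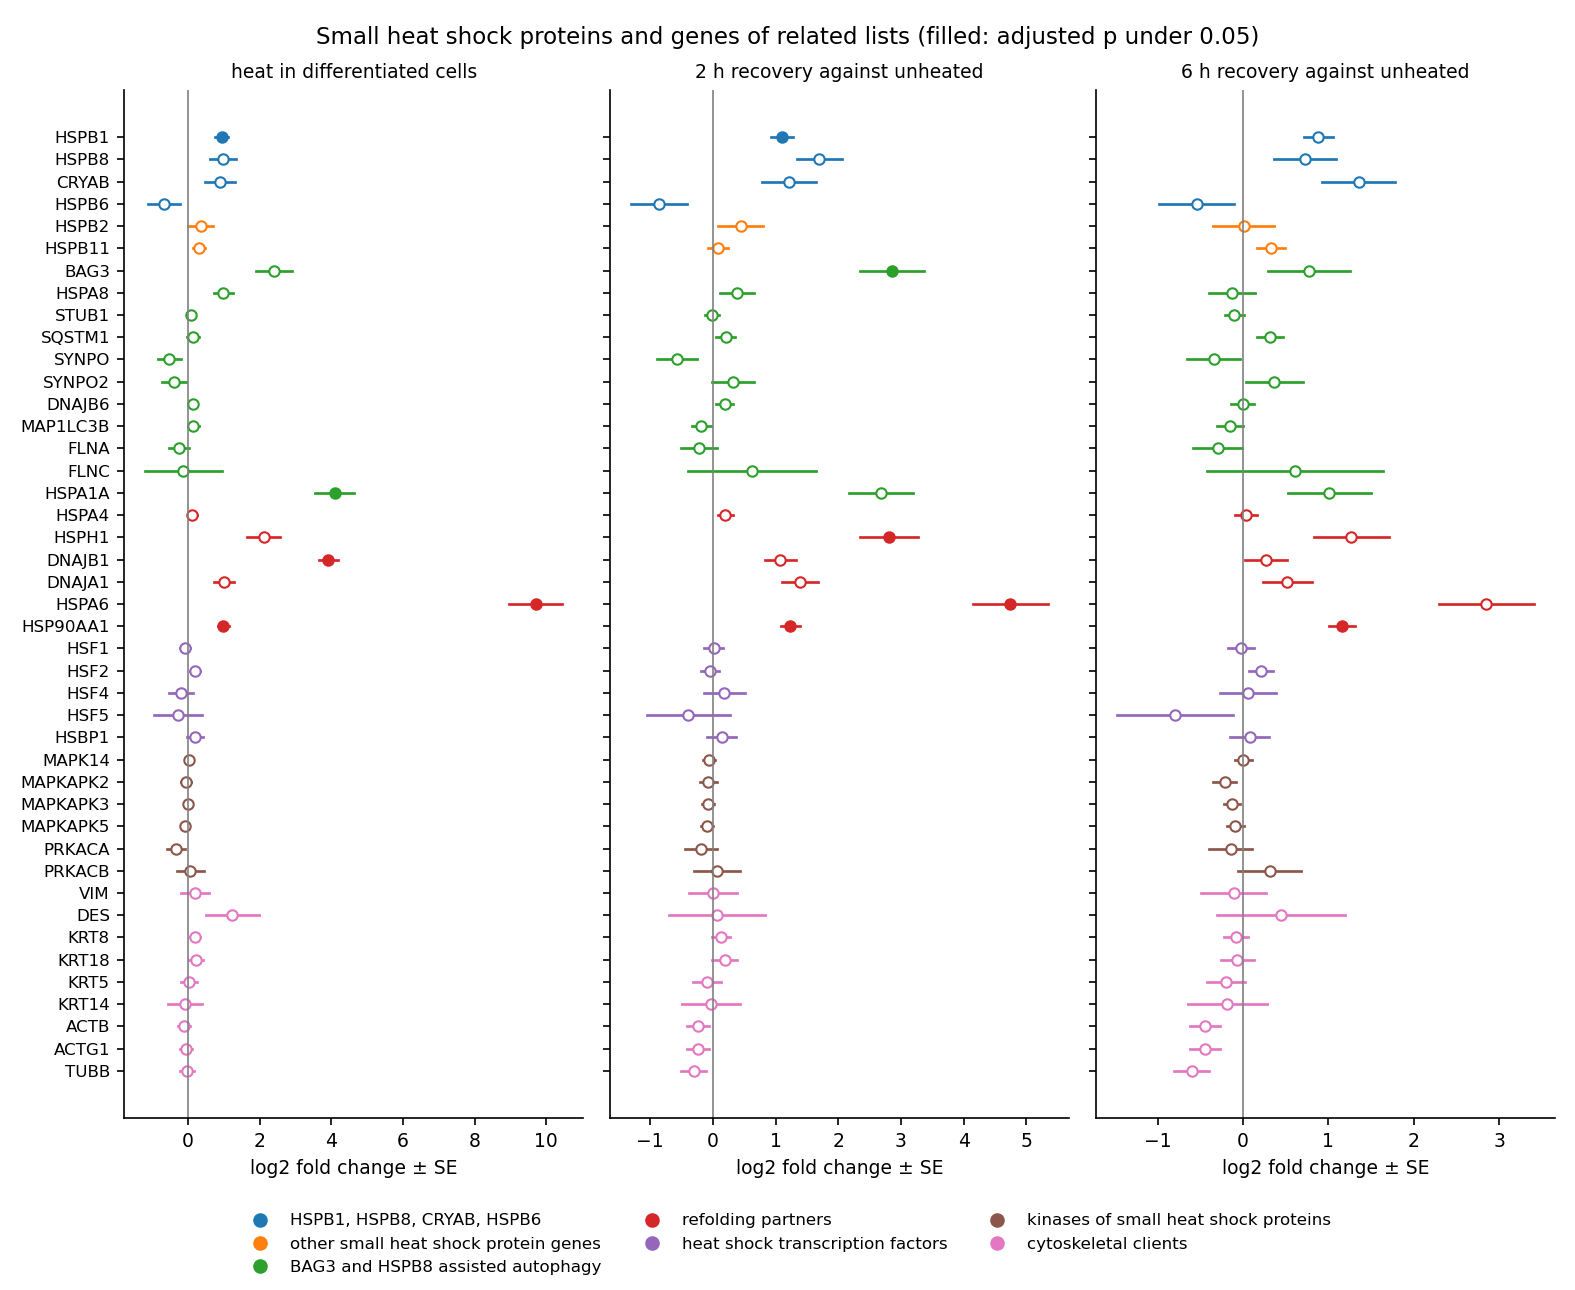
Log2 fold changes (± SE, edgeR without a block) of the 4 genes and of the tested genes of 6 related lists, for heat, 2 h and 6 h of recovery against NHSD, filled where the adjusted p was under 0.05 (horizontal scales differ). HSPA6, DNAJB1, HSPA1A, HSPH1 and BAG3 have estimates above 2 in at least 1 panel, and no heat shock factor, kinase or cytoskeletal gene is called.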

How the data were processed

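The authors deposited read counts for each gene, not normalized, in 18 columns of which 0 had no matching sample. Per the labels' protocols, paired-end reads were cleaned with fastp 0.23.2 and aligned with STAR 2.7.9a to ARS-UCD 1.3. The submitters' processing notes list featureCounts 2.0.3, DESeq2 and limma. No statement on annotation or strand is given in the sources used here, and even numbers made up 72.7% of counts between 1 and 20, so both mates of a pair may have been counted.

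Genes were filtered with edgeR 4.0.16 (filterByExpr, minimum count 10), scaled by TMM and modelled in R 4.3.3, all 18 libraries together, with group as the only factor. The 10 contrasts were tested by the quasi-likelihood test (robust, two-sided), with Benjamini-Hochberg adjustment over 15158 genes and calls at an adjusted p under 0.05. SE came from the F statistic. Alternatives were DESeq2 1.42.0, other scalings and filters, the compared groups alone, a replicate block and left-out libraries. On simulated counts for heat in differentiated cells (15158 genes), 57% of 2-fold and 99% of 4-fold changes were called. There 100 genes were changed by each fold, all with a mean of at least 5 CPM, with independent noise and no replicate effect. In the data 13 genes were called as higher in that contrast, so these percentages can overstate what the test could call here.

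Same-numbered libraries deviated together from their group means in 45 of 45 pairs (correlations 0.135 to 0.596), and the labels say the experiment was repeated, so the numbers pair the libraries. The main fit leaves this pairing out, and the replicate block takes it in. With the block the coefficient of variation went from 0.153 to 0.129 for HSPB1 and from 0.303 to 0.264 for HSPB8. For CRYAB it went from 0.356 to 0.173, and for HSPB6 from 0.38 to 0.262. The 4 genes and all lists were chosen with earlier results of these data known. Genes are named if they are one of the 4, are called in a list, have the largest change in a list, or are among the 3 most similar to a member; list genes not so chosen (HSPA8, STUB1, SQSTM1, SYNPO2, HSF1, MAPKAPK2, TUBB, HSPB7, HSPB9, HSPB11, CRYAA, HSPB3, ODF1) were added after their values were seen. Gene names are those of the table, and RefSeq (ARS-UCD2.0), another build, was used for names and neighbours only; it held 24553 of 30642 names.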

Additional observations from a re-analysis of the deposited data

How the results depend on the processing

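Without the block, the HSPB1 calls for heat and for 2 h of recovery were lost under several settings, while its estimates without 1 library stayed between 0.8147 and 1.222. Of the 4 genes, the number called for heat in undifferentiated cells was 1, and 0 with scaling by library size alone, with the compared groups alone, in all fits without 1 library (0 to 0) and with the replicate block without replicate 2. For heat in differentiated cells it was 1, and 0 with scaling by library size alone, with the filter of 5 CPM in 3 libraries, with the compared groups alone, without 1 library (0 to 0) and with the replicate block without replicate 2, but 3 with the replicate block without replicate 1. For 2 h of recovery against NHSD it was 1, and 2 with DESeq2 and with the replicate block, 0 with the compared groups alone, 0 to 2 without 1 library, 3 and 0 with the block without replicates 1 and 2, and 2 without both D2R replicate 1 and D6R replicate 1, an alternative chosen after seeing the data. For 6 h against NHSD it was 0, and 1 with DESeq2, 2 with the replicate block, 0 to 1 without 1 library, 3 with the block without replicate 1, and 1 without both of those libraries. The block without replicate 1 also called 1 gene in each of the comparisons of D2R with HSD, D6R with HSD and D6R with D2R, against 0. The replicate block changed no other call of the 4 genes. Why these calls moved was not tested, beyond the fewer samples that some fits hold.

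Direction changed only in log2 estimates that passed no test under any of the settings that turned them. The HSPB1 difference of heat effects between media was 0.002993 with DESeq2, 0.002992 with DESeq2 size factors, 0.01948 with library size alone and 0.008881 without a filter, and HSPB1 at 6 h against HSD was 0.06855 with library size alone and 0.08876 without both recovery libraries of replicate 1. With the replicate block and without replicate 1, HSPB1 was -0.101 and CRYAB -0.08668 for the unheated media, HSPB1 -0.1052 for the heated media and 0.2404 at 6 h against HSD. With the block and without replicate 2, HSPB6 was 0.2421 for the heated media, 0.07682 for the difference of heat effects and -0.2612 at 6 h against HSD, and HSPB1 was 0.02879 for the difference of heat effects and -0.04208 at 2 h against HSD. With the block and without replicate 3, HSPB6 was -0.2072 for the unheated media, 0.05208 for the difference of heat effects, -0.2053 at 6 h against HSD and -0.06729 between 6 h and 2 h, where CRYAB was -0.1109.

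Without 1 library, estimates for the unheated media ran from -0.05069 to 0.1631 for HSPB1, from -0.264 to 0.6463 for CRYAB and from -0.6394 to 0.482 for HSPB6, and for the heated media from -0.0821 to 0.1237, from -0.01485 to 0.5374 and from -0.3035 to 0.1167. The difference of heat effects ran from -0.1255 to 0.09522 for HSPB1, from -0.4515 to 0.462 for CRYAB and from -0.6114 to 0.5134 for HSPB6. For HSPB6, heat in differentiated cells ran from -0.9242 to 0.0331, 6 h against NHSD from -0.9698 to 0.1564, 6 h against HSD from -0.305 to 0.4133 and 6 h against 2 h from -0.1165 to 0.602, with 0.7023 without both recovery libraries of replicate 1. HSPB1 at 6 h against HSD ran from -0.1771 to 0.08885, and CRYAB between 6 h and 2 h from -0.313 to 0.4502. With 3 libraries per group and a common coefficient of variation of 0.245 (0.14 with the block), changes near 2-fold lay close to what the test could call.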
